A study of Homo sapiens with 10 samples.

Results

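The 52 genes described here act in mitosis and in the G2 phase that leads into it. They were taken as a fixed list of symbols from the table of normalized counts, and all 52 were found among its 19590 genes. The libraries came from MV4-11, an established human acute myeloid leukemia (AML) cell line of monocytic type. The 4 Control libraries came from cells infected with a CRISPR control vector, and the 4 IRF8 KO libraries from cells in which IRF8, a transcription factor of the interferon regulatory factor family, was targeted with lentiviral CRISPR-Cas9. Both groups carry the lentiviral construct and passed through puromycin selection. According to the methods of the study, the knockout cells were clones grown by limited dilution with either of a pair of guides. The labels do not say which clone gave which library, nor whether the replicates were separate cultures, so p-values measure only the spread between these libraries. The comparison addresses how the loss of IRF8 affects transcription in these leukemia cells. In this design, the loss of IRF8 and other differences between the knockout clones and the Control cells cannot be told apart.

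Mitosis is started by CDK1 bound to cyclin B, which the CDC25 phosphatases switch on and WEE1 holds back. Polo-like and Aurora kinases then build the spindle, the spindle assembly checkpoint delays anaphase until every kinetochore is attached, and the anaphase-promoting complex with CDC20 ends mitosis by marking securin and the mitotic cyclins for destruction. Transcripts of these genes build up together late in the cell cycle. The MuvB complex with pocket proteins holds them silent in resting cells, and MuvB with B-MYB (MYBL2) and then FOXM1 activates them in G2. In RNA from bulk cells, a smaller share of cells in G2 and mitosis and less of these transcripts per cell cannot be told apart.

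The known binding site of MuvB is the cell cycle genes homology region (CHR), with the letters TTTGAA or TTCGAA, often beside a CCAAT box that NF-Y binds. The RefSeq windows used here, on build GRCh38.p14, reach from 250 bases before to 50 bases after the gene start, and 43 of the 52 genes had a window (the first one listed where a gene has several). The letters TTTGAA or their reverse complement TTCAAA, or TTCGAA, which reads alike on both strands, stood in 31 of these 43 windows (72.1%), compared with 16.6% of the windows of 27305 genes and 11.7% of those of 10360 genes tested below. In the 100 bases before the start they stood in 18 of the 43 windows (41.9%), compared with 2.92% of the tested genes. CCAAT or ATTGG stood in 34 windows (79.1%, compared with 36.6%), and both kinds of letters, which may share bases, in 27 (62.8%, compared with 4.86%). These are matches of letters, not measured binding. The promoters of 5 genes that carry much of the account below are shown because each holds these letters. Each stretch runs from 200 bases before the start to 30 bases after it, 5′ to 3′ on the strand of the gene, with the CHR letters in capitals.
CDK1: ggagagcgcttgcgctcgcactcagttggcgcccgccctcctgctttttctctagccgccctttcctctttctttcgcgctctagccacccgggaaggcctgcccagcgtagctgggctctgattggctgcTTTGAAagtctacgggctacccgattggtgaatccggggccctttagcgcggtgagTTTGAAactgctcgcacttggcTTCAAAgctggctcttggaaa
CDC20: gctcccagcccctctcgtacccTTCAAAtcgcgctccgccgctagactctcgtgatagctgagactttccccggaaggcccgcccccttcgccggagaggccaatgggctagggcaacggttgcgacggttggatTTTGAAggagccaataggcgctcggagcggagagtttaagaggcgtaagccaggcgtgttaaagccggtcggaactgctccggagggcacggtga
PLK1: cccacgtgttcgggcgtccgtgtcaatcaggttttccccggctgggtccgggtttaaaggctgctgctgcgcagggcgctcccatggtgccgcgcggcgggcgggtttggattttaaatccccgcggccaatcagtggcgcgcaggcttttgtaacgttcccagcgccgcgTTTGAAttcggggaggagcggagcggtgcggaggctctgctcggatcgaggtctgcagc
TOP2A: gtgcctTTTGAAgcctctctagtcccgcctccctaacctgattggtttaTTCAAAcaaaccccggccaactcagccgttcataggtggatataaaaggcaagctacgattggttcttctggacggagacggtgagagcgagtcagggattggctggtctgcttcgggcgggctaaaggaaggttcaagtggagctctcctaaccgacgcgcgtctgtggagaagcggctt
MKI67: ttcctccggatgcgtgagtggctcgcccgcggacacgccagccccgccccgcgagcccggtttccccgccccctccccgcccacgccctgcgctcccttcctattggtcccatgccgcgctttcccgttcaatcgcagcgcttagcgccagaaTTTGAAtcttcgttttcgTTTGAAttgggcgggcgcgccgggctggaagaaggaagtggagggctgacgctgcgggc
The CDK1 stretch is chr10:60778278-60778507 on the plus strand and belongs to the other of its 2 RefSeq windows, not to the one counted above. The CDC20 stretch is chr1:43358781-43359010 and the PLK1 stretch chr16:23678689-23678918, both on the plus strand. The TOP2A stretch is chr17:40417867-40418096 and the MKI67 stretch chr10:128126394-128126623, both on the minus strand. The letters nearest to the start lie 29 bases before it in PLK1 and in MKI67, 65 in CDC20 and 151 in TOP2A. In 16 of the 43 windows they begin between 40 and 10 bases before the start, among them those of CKS2, CCNB2, BUB1B and GTSE1. CCNB1 had a window without these letters.

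The values are read counts that the authors divided by a size factor for each library, here called normalized counts. Reads on genes numbered between 39560072 and 65519047 in a library. Control replicates 1 and 3, which are described together below, were the deepest and the shallowest Control library. IRF8 itself had 36891, 15192, 43016 and 22535 normalized counts in Control replicates 1 to 4 and 6377, 2401, 12903 and 7819.7 in IRF8 KO replicates 1 to 4, without overlap, at a log2 fold change of -2.11 ± 0.51 (SE, limma adjusted p = 0.022, but up to 0.059 without Control replicate 1, Control replicate 3 or IRF8 KO replicate 1). All 8 markers of a monocytic AML line passed the filter on low values. In the IRF8 KO libraries 4 of them rose and 0 fell (limma adjusted p below 0.05), while 8.65% of all tested genes rose and 9.56% fell. The log2 fold change was above 0 in 6 of the 8 markers and below 0 in 2. The summed level of the 8 markers ranged from 26729 to 38297 in Control and from 74596 to 320202 in IRF8 KO. The erythroid markers HBB and HBG1 were at 0 in every library. Of 3 further lists, 2 of 6 T and NK cell, 3 of 4 B cell and 3 of 6 epithelial and fibroblast markers passed the filter. In each of these 3 lists, 1 marker was called lower in IRF8 KO and 0 were called higher. Summed levels of these lists ranged from 7874 to 21590 in Control and 3047 to 6369 in IRF8 KO for T and NK cells, from 479 to 972 and 436 to 1853 for B cells, and from 516 to 628 and 26.6 to 422 for epithelial cells and fibroblasts, with KRT19 at 0. The part of these markers in the results below was not tested.

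The mitotic genes varied widely between the Control libraries. The 52 genes together took 1.03% and 1.07% of the reads in Control replicates 1 and 3, but 0.422% and 0.603% in Control replicates 2 and 4. The 4 IRF8 KO libraries lay between the lowest and the highest of these values, at 0.605%, 0.554%, 0.627% and 0.615% for replicates 1 to 4. Each gene was then set against its own mean. The median deviation of a gene from its own mean over the 8 libraries, on the scale of log2(normalized count + 1), was 0.63, -0.76, 0.69 and -0.25 in Control replicates 1 to 4 and -0.04, -0.18, 0.06 and -0.05 in IRF8 KO replicates 1 to 4. Over all tested genes the median deviation lay between 0.0021 and 0.015 in every library.

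**Figure D1:**
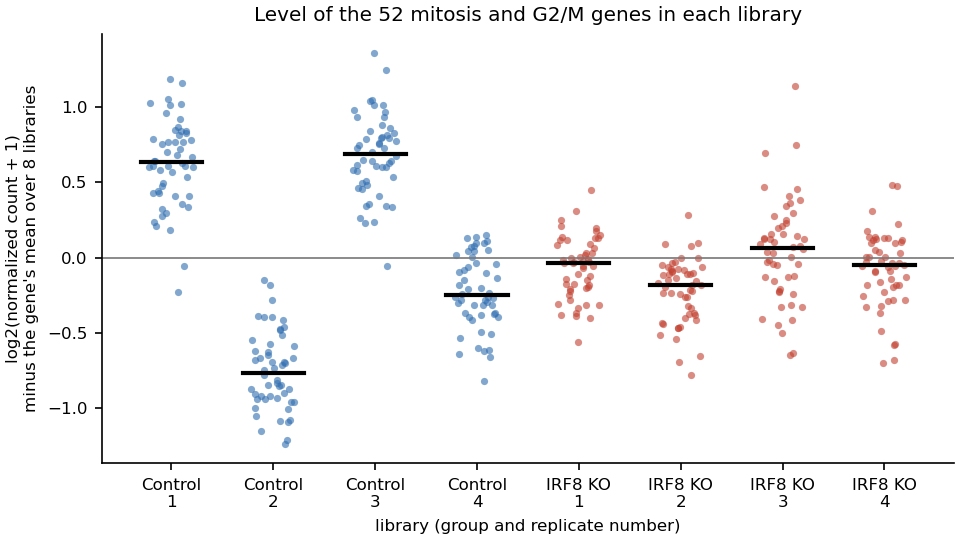
Level of each of the 52 genes (points) in each library, as log2(normalized count + 1) minus the mean of the gene over the 8 libraries, with the median as a bar. Control replicates 1 and 3 lie high (medians 0.63 and 0.69), Control replicate 2 lies lowest (-0.76), and the IRF8 KO medians stay between -0.18 and 0.06.

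In all 52 genes both Control replicates 1 and 3 exceeded both Control replicates 2 and 4, an order that 39.2% of the 13110 tested genes showed. The median difference was 1.16 on the log2 scale, or 2.24-fold, compared with -0.02 over all tested genes, and ranged from 0.30 to 1.69 among the 52 genes. In the IRF8 KO libraries the same order held in 18 of the 52 genes (25.3% of all tested genes), with a median difference of 0.10. The opposite order held in 4 of the 52 genes, and in 3159 of the 13110 tested genes. This grouping of the libraries was first seen in these data, so it is described without a test. Control replicate 2 had the lowest Control value in 51 of the 52 genes, and the lowest of all 8 libraries in 43. Control replicate 3 had the highest Control value in 38 genes and Control replicate 1 in the other 14. The range of the 4 log2 values was wider in Control than in IRF8 KO in 50 of the 52 genes (96.2%), compared with 43.8% of all tested genes. The median range was 1.50 in Control and 0.37 in IRF8 KO, compared with 0.58 and 0.64 over all tested genes. All 4 IRF8 KO values lay inside the Control range in 40 of the 52 genes (12.9% of all tested genes), and in 21 of them they lay above Control replicates 2 and 4 and below Control replicates 1 and 3 (3.46% of all tested genes). The median Control difference was 1.16 in the 31 genes with CHR letters in their window and 1.06 in the 12 without, and the median IRF8 KO difference was 0.09 and 0.12.

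The spread between the Control libraries can be read from single genes. CDCA3, which promotes the removal of WEE1 at mitotic entry, had 4040.0, 1151, 4260.1 and 1554 normalized counts in Control replicates 1 to 4 and 2025, 1424, 2375 and 1601 in IRF8 KO replicates 1 to 4. Replicates 1 and 3 were thus the highest in both genotypes, by 1.63 in Control and 0.54 in IRF8 KO on the log2 scale. BIRC5 (survivin), a subunit of the chromosomal passenger complex, had 13484, 3474, 12874 and 4786 in Control and 7544, 6161, 9796 and 6688 in IRF8 KO, differences of 1.69 and 0.42. KIF20A, a kinesin of the central spindle, had 8084, 2129, 7906 and 3199 in Control and 4371, 3489, 6262 and 4439 in IRF8 KO, differences of 1.61 and 0.41. Of the 52 genes, these 3 had the highest mean of both differences. At the other end stood CDC25C, a phosphatase that activates CDK1, with 977, 706, 1013 and 917 in Control and 679, 725, 991 and 941 in IRF8 KO, and differences of 0.30 and -0.011. BUB3, a checkpoint protein, had 18984, 13704, 19315 and 15628 in Control and 12991, 14257, 13627 and 14287 in IRF8 KO, with differences of 0.39 and -0.10. NEK2, a kinase that separates the centrosomes, had 2692, 1688, 2608 and 2429 in Control and 1865, 2110.4, 2272 and 2299 in IRF8 KO, with differences of 0.39 and -0.10. Even in these last 3 genes, Control replicates 1 and 3 were above Control replicates 2 and 4. The gene models of CDCA3, KIF20A and CDC25C overlap those of GNB3, CDC23 and FAM53C, and those of CCNA2, FOXM1 and PLK1 overlap other genes of the table too. The library kit was stranded, but no source used here says whether reads were counted by strand, so reads of such neighbours may be mixed.

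IRF8 KO was then compared with Control. With limma on log2(normalized count + 1), 0 of the 52 genes changed at an adjusted p below 0.05, while 18.2% of all 13110 tested genes did. At an unadjusted p below 0.05, 1 gene was higher (PTTG1) and 5 were lower (CDC25B, AURKA, UBE2C, TPX2 and NDC80), while 15.6% of all tested genes were higher and 16.0% lower. The study's own thresholds, at least 2-fold and an unadjusted p below 0.01, were passed by 0 genes with limma (10.9% of all tested genes). The study applied them to DESeq2 results. With DESeq2 here, 2 of the 52 genes passed them, and the share of all tested genes was not counted. The log2 fold change was above 0 in 17 genes and below 0 in 35, ranged from -1.14 to 0.98, and had a median of -0.08, compared with -0.00094 over all tested genes (with DESeq2 and with edgeR the median of the 52 genes was -0.19). The median standard error was 0.32, compared with 0.21 over all tested genes. The groups did not overlap in 1 gene, CDC25B, which was lower (13.0% of all tested genes were lower without overlap), and in 0 genes that were higher (12.3% of all tested genes). The counts rested on the fit and on single libraries. edgeR called 2 of the 52 genes lower (CDC25B and UBE2C, compared with 9.20% of all tested genes). DESeq2 called 8, with PTTG1 higher (12.8% of all tested genes) and the 5 genes on chromosome 20, ESPL1 and NDC80 lower (13.1% of all tested genes). Without Control replicate 2, limma called 10 genes, all lower: CDC25B, MYBL2, AURKA, UBE2C, ESPL1, NDC80, CENPE, TPX2, TOP2A and MKI67. Of the 13092 genes tested in that fit, 15.5% were called, 1047 of them lower. Without IRF8 KO replicate 2 it called PTTG1 alone, as higher (8.87% of all genes tested). The median log2 fold change of the 52 genes was -0.36 without Control replicate 2, but 0.07 without Control replicate 1 and 0.09 without Control replicate 3.

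**Figure D2:**
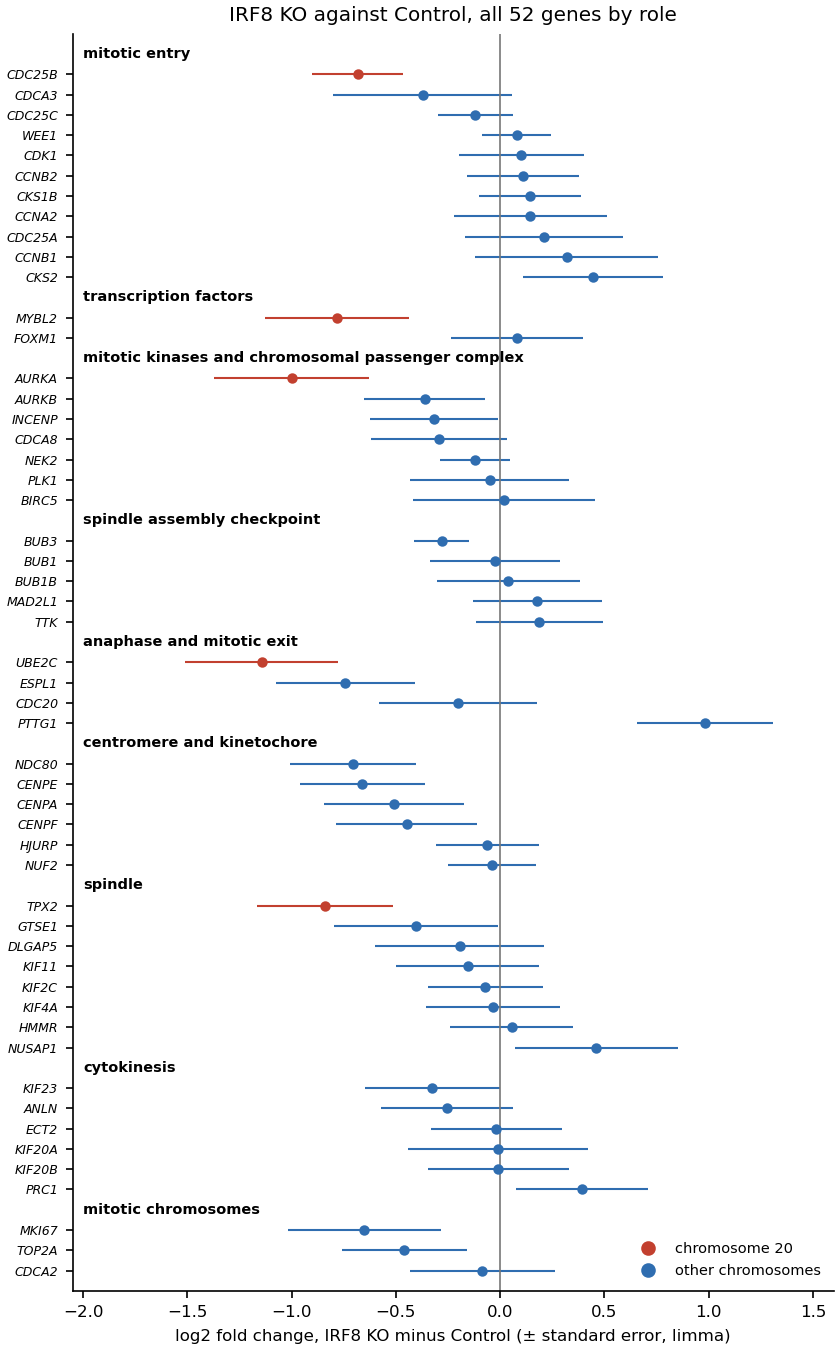
Log2 fold change of each of the 52 genes, IRF8 KO minus Control (limma), with its standard error as a line, ordered by role and value. UBE2C is lowest (-1.14) and PTTG1 highest (0.98), and the 5 genes on chromosome 20 (red) lie between -1.14 and -0.68.

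Libraries of the same replicate number deviated together from their group means, as did replicates 1 with 3 and 2 with 4. The comparison was also fitted with a block for each replicate number. The median standard error of the 52 genes was then 0.23, compared with 0.15 over all tested genes. With this block, 1 gene was called higher (14.2% of all tested genes were) and 4 lower (14.6% of all tested genes were). PTTG1 rose (limma adjusted p = 0.0025 with the block), and UBE2C, AURKA, CDC25B and TPX2 fell (adjusted p = 0.014, 0.016, 0.019 and 0.041). All 4 that fell lie on chromosome 20.

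Among the 11 genes of mitotic entry, 8 had a log2 fold change above 0 and 3 below, with a median of 0.11. CDK1 had 10202, 4048, 11331 and 6139.8 normalized counts in Control replicates 1 to 4 and 8241, 7323, 8305 and 7597 in IRF8 KO replicates 1 to 4. The IRF8 KO values all lay between the high and the low Control libraries, and the log2 fold change was 0.10 ± 0.30 (SE, 95% interval -0.58 to 0.78), with the other sign by DESeq2 (-0.0067). CCNB1, cyclin B1, had 16364, 4619.9, 16559 and 6785 in Control and 10944, 8294, 18055 and 12548 in IRF8 KO. Its highest value was that of IRF8 KO replicate 3, the groups overlapped, and the log2 fold change was 0.32 ± 0.44 (95% interval -0.67 to 1.31). CKS2, a small subunit that binds CDK1, had 5098, 2079.6, 5955 and 2975 in Control and 4743, 3979, 6993 and 4891 in IRF8 KO, again with IRF8 KO replicate 3 on top, and a log2 fold change of 0.45 ± 0.33 (limma adjusted p = 0.41, 0.10 with the block). IRF8 KO replicate 3 had the highest value of all 8 libraries in only 4 of the 52 genes, which were CCNB1, CKS2, PTTG1 and PRC1. CDC25B, the phosphatase that starts the activation of CDK1 at the centrosomes, had 4314, 2229.7, 4134 and 2679 in Control and 1961, 1834, 2194 and 2030.4 in IRF8 KO. Every IRF8 KO value was below every Control value, with a log2 fold change of -0.68 ± 0.22 (limma adjusted p = 0.061). The exact two-sided permutation test gave p = 0.029, the smallest value that 4 libraries against 4 allow. Any gene without overlap gets this value, so it says no more than the lack of overlap. Of all tested genes, 13.0% were lower without overlap, and this p was not adjusted for the choice of CDC25B among the 52 genes. The other fold changes of this group were smaller than their standard errors. CCNA2 and CCNB2, cyclins A2 and B2, had log2 fold changes of 0.15 ± 0.37 and 0.11 ± 0.27, and CDC25A, CKS1B and WEE1 of 0.21 ± 0.38, 0.14 ± 0.24 and 0.08 ± 0.16. CDCA3 and CDC25C had -0.37 ± 0.43 and -0.12 ± 0.18.

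**Figure D3:**
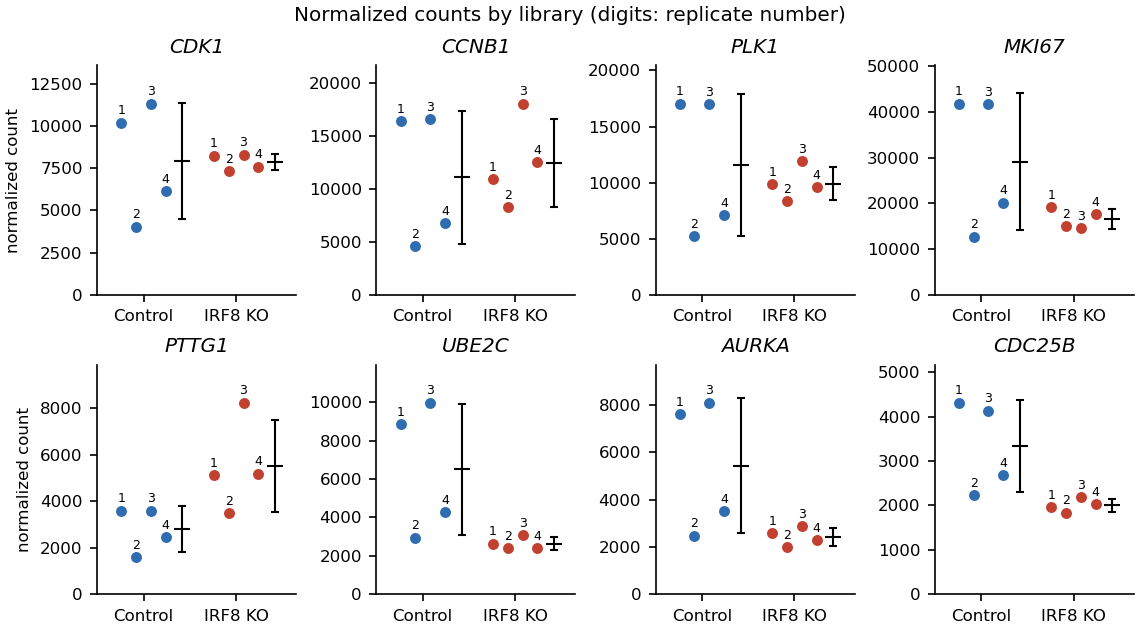
Normalized counts of 8 genes in each library (points, with the replicate number above), with the mean and SD of the 4 libraries of a group as a bar beside them. For CDK1, CCNB1, PLK1 and MKI67 the Control libraries split into a high pair (1 and 3) and a low pair (2 and 4) with the IRF8 KO values within or near that span, while the IRF8 KO values of UBE2C, AURKA and CDC25B lie at the low Control values or below, and those of PTTG1 at the high ones or above.

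FOXM1 and MYBL2 encode the factors that switch on the late cell cycle genes. FOXM1 had a log2 fold change of 0.08 ± 0.32 (SE), with all IRF8 KO values between the high and the low Control libraries. MYBL2 had 19158, 6198, 19089 and 9501 normalized counts in Control replicates 1 to 4 and 7059, 6675, 7919 and 6579 in IRF8 KO replicates 1 to 4. The IRF8 KO libraries lay just above Control replicate 2, the lowest Control library, and below the other 3. The log2 fold change was -0.78 ± 0.35 (limma adjusted p = 0.16, 0.054 with the block).

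Of the 7 genes for mitotic kinases and the chromosomal passenger complex, 1 had a log2 fold change above 0 and 6 below, with a median of -0.29. AURKA, the Aurora kinase of the spindle poles, had 7619, 2465, 8087 and 3519 normalized counts in Control replicates 1 to 4 and 2577, 1982, 2869.5 and 2287 in IRF8 KO replicates 1 to 4. The means were 5423 ± 2846 and 2429 ± 381 (SD, n = 4), and only the lowest Control library reached into the range of the IRF8 KO values. The log2 fold change was -0.998 ± 0.37 (limma adjusted p = 0.10). PLK1, the polo-like kinase that acts from mitotic entry to cytokinesis, had 17049, 5229.7, 17014 and 7102 in Control and 9847, 8342, 11913 and 9585 in IRF8 KO, with a log2 fold change of -0.05 ± 0.38 (95% interval -0.92 to 0.82). Its IRF8 KO values lay between the high and the low Control libraries, as did those of BIRC5 (0.02 ± 0.44, but -0.19 by DESeq2). AURKB, INCENP and CDCA8, which form the passenger complex with BIRC5, had -0.36 ± 0.29, -0.32 ± 0.31 and -0.29 ± 0.33, and NEK2 had -0.12 ± 0.17.

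Of the 5 genes of the spindle assembly checkpoint, 3 had a log2 fold change above 0 and 2 below (median 0.04). BUB1 and BUB1B, checkpoint kinases of the kinetochore, had -0.03 ± 0.31 and 0.04 ± 0.34 (SE), MAD2L1, the MAD2 protein that holds back CDC20, 0.18 ± 0.31, and TTK, the MPS1 kinase, 0.19 ± 0.30. In all 4 of these the IRF8 KO values lay between the high and the low Control libraries. BUB3 had the smallest standard error of the 52 genes, with a log2 fold change of -0.28 ± 0.13 (limma adjusted p = 0.19, 0.15 with the block).

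The genes of anaphase and mitotic exit held both the highest and the lowest fold change. PTTG1, securin, which keeps separase inactive until anaphase, had 3595, 1585, 3604 and 2448 normalized counts in Control replicates 1 to 4 and 5124, 3493, 8244 and 5197 in IRF8 KO replicates 1 to 4. The means were 2808 ± 979.7 and 5514 ± 1983 (SD, n = 4), and only IRF8 KO replicate 2 lay within the Control range, just under the high Control libraries. The log2 fold change was 0.98 ± 0.33 (limma adjusted p = 0.069, 0.0025 with the block). ESPL1, separase itself, had a log2 fold change of -0.74 ± 0.33 (limma adjusted p = 0.17, 0.069 with the block), in the other direction. UBE2C, the ubiquitin-conjugating enzyme of the anaphase-promoting complex, had 8848, 2952, 9971 and 4265 in Control and 2637, 2400.1, 3090.2 and 2385 in IRF8 KO. Of the IRF8 KO values only that of replicate 3 lay above the lowest Control library. The log2 fold change of -1.14 ± 0.37 (limma adjusted p = 0.062) was the only one of the 52 that reached 2-fold. CDC20, the activator of the anaphase-promoting complex, had 14998, 4739, 14062 and 6385 in Control and 8006, 6298, 10596 and 6837 in IRF8 KO, with all IRF8 KO values inside the Control range and a log2 fold change of -0.20 ± 0.38 (95% interval -1.06 to 0.66).

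All 6 genes of the centromere and kinetochore had a log2 fold change below 0, with a median of -0.48, and none passed the test. NDC80 and NUF2 encode partners in the complex that grips microtubules, with log2 fold changes of -0.71 ± 0.30 (SE, limma adjusted p = 0.15, 0.075 with the block) and -0.04 ± 0.21. CENPE, a kinetochore kinesin, had -0.66 ± 0.30, CENPA, the histone H3 of centromeres, -0.51 ± 0.34, CENPF -0.45 ± 0.34 and HJURP, the chaperone of CENPA, -0.06 ± 0.25.

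Of the 8 spindle genes, 2 had a log2 fold change above 0 and 6 below, with a median of -0.11. TPX2, which activates AURKA on spindle microtubules, had 22535, 8312, 21749 and 11992 normalized counts in Control replicates 1 to 4 and 10899, 8788, 7141 and 6940.2 in IRF8 KO replicates 1 to 4. IRF8 KO replicates 3 and 4 were below every Control library, replicates 1 and 2 were not, and the log2 fold change was -0.84 ± 0.33 (SE, limma adjusted p = 0.11). NUSAP1, which bundles microtubules, had only 10.5, 8.63, 19.3 and 6.59 in Control and 10.7, 15.3, 16.3 and 17.7 in IRF8 KO, so that its log2 fold change of 0.46 ± 0.39 rests on a few reads. KIF11, the kinesin that pushes spindle poles apart, had -0.16 ± 0.34, KIF2C, which shortens microtubules, -0.07 ± 0.28, and the chromosome kinesin KIF4A -0.03 ± 0.32. HMMR, DLGAP5 and GTSE1, which bind microtubules, had 0.05 ± 0.30, -0.19 ± 0.40 and -0.40 ± 0.40.

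Of the 6 genes of cytokinesis, 1 had a log2 fold change above 0 and 5 below (median -0.01). PRC1, which links the microtubules of the central spindle, had 0.39 ± 0.32 (SE) at between 146 and 405 normalized counts. KIF23, a subunit of centralspindlin, had -0.33 ± 0.32, ANLN, a scaffold of the contractile ring, -0.25 ± 0.32, and ECT2, which activates RhoA at the division site, -0.02 ± 0.31. KIF20A and KIF20B had -0.0096 ± 0.43 and -0.0089 ± 0.34. The limma adjusted p-values of these 6 genes ranged from 0.45 to 0.99.

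The 3 genes of mitotic chromosomes were below 0, with a median of -0.46. MKI67, the Ki-67 antigen that coats mitotic chromosomes and marks cycling cells, had 41841, 12743, 41771 and 20192 normalized counts in Control replicates 1 to 4 and 19185, 15016, 14582 and 17617 in IRF8 KO replicates 1 to 4. The IRF8 KO libraries were within the span of Control replicates 2 and 4 and far below replicates 1 and 3, with a log2 fold change of -0.65 ± 0.37 (SE, limma adjusted p = 0.27). TOP2A, the topoisomerase that untangles sister chromatids, had 57915, 22927, 63626 and 35646 in Control and 31435, 32287, 26065 and 31758 in IRF8 KO, with a log2 fold change of -0.46 ± 0.30 (limma adjusted p = 0.34). CDCA2, a phosphatase partner that acts on chromosomes at mitotic exit, had -0.08 ± 0.35.

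Because replicate numbers were shared, each IRF8 KO library was also set beside the Control library of the same number. The sign of the median difference changed with the number. For replicate numbers 1 and 3, IRF8 KO was lower in 50 and 48 of the 52 genes, with median log2 differences of -0.63 and -0.52. For replicate number 2 it was lower in 3 genes and for number 4 in 17, with medians of 0.61 and 0.20. IRF8 KO was higher for all 4 numbers in 1 gene, PTTG1 (24.0% of all tested genes), whose log2 differences were 0.51, 1.14, 1.19 and 1.09 for numbers 1 to 4. It was lower for all 4 numbers in 3 genes, CDC25B, AURKA and UBE2C (23.8% of all tested genes). For UBE2C the log2 differences were -1.75, -0.30, -1.69 and -0.84. For CDK1 they were -0.31, 0.86, -0.45 and 0.31, with the sign of the group medians.

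**Figure D4:**
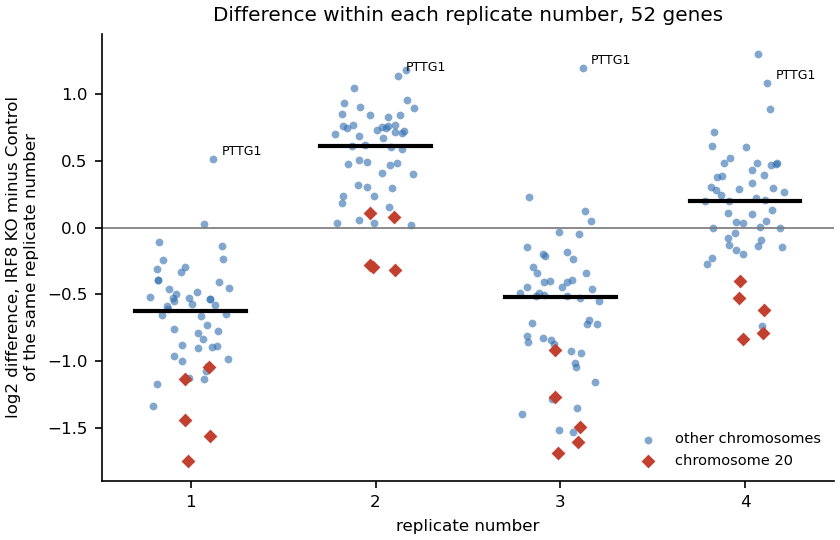
Log2 difference of each of the 52 genes (points) between the IRF8 KO and the Control library of the same replicate number, with the median as a bar. The medians are -0.63, 0.61, -0.52 and 0.20 for numbers 1 to 4, the genes on chromosome 20 (red diamonds) lie low at each number, and PTTG1 is above 0 at each.

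Of the 52 genes, CDC25B, MYBL2, AURKA, UBE2C and TPX2 lie on chromosome 20. The tested genes of this chromosome were lower in IRF8 KO as a whole, with a median log2 fold change of -0.92 over 351 genes (quartiles -1.24 and -0.61), of which 214 fell and 5 rose. The 5 mitotic genes had a median of -0.84, compared with -0.05 for the 47 others. Their median differences for replicate numbers 1 to 4 were -1.44, -0.28, -1.49 and -0.62, and the 3 genes that were lower for number 2 were among them. Within their chromosome these genes did not stand at an end. The share of chromosome 20 genes with a fold change at or below theirs was 70.7% for CDC25B, 64.4% for MYBL2, 58.7% for TPX2, 43.0% for AURKA and 32.5% for UBE2C. When the log2 value was taken relative to the median of the chromosome 20 genes in each library, IRF8 KO minus Control was 0.22 for CDC25B, 0.12 for MYBL2, 0.06 for TPX2, -0.10 for AURKA and -0.24 for UBE2C. Exact two-sided permutation tests of these relative values gave p between 0.43 and 0.89, and Benjamini-Hochberg adjustment over the 5 genes gave 0.89 for each. These tests used no replicate block. The SD was between 0.51 and 0.89 in Control and between 0.11 and 0.26 in IRF8 KO, so a difference could have been missed. On this relative scale the Control libraries again spanned the IRF8 KO values for AURKA, MYBL2, UBE2C, CDC25B and TPX2. For AURKA, Control replicates 1 to 4 were at 2.25, 0.55, 2.30 and 0.99 and IRF8 KO replicates 1 to 4 at 1.47, 1.14, 1.67 and 1.43. The signs depended on single libraries in 4 of the 5 genes: without Control replicate 2 the difference was -0.20 for MYBL2 and -0.22 for TPX2, and without Control replicate 3 it was 0.16 for AURKA and 0.03 for UBE2C.

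**Figure D5:**
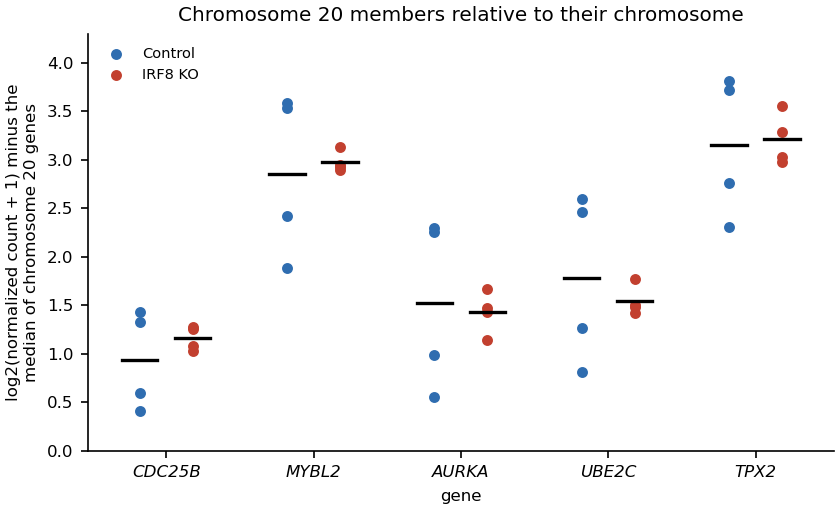
Log2(normalized count + 1) of the 5 chromosome 20 genes minus the median of the 351 tested chromosome 20 genes in the same library, for each Control (blue) and IRF8 KO (red) library, with the group mean as a bar. The Control libraries spread on either side of the IRF8 KO libraries, and the group means differ by between -0.24 and 0.22.

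Other genes of the pathway were counted from lists, for which 8.65% of all tested genes called higher and 9.56% called lower in the limma comparison are the background. Of 18 genes of the MuvB complex, pocket proteins and E2F factors, 0 rose and 3 fell. E2F7, a repressor that acts in S phase and G2, had 608, 167, 712 and 322 normalized counts in Control replicates 1 to 4 and 59.7, 66.9, 65.0 and 53.1 in IRF8 KO replicates 1 to 4, and fell by 2.66 on the log2 scale (SE 0.43, limma adjusted p = 0.0035). Its groups did not overlap, although Control replicates 1 and 3 were again above 2 and 4. RBL1, the pocket protein p107, fell too (log2 fold change -0.81 ± 0.22, limma adjusted p = 0.034), as did E2F1 (-0.96 ± 0.27, adjusted p = 0.041), and both lie on chromosome 20. E2F1 was named after its value was seen. Of 18 genes of the anaphase-promoting complex and its enzymes, 2 rose and 0 fell. These were UBE2D1, an alternative conjugating enzyme, at 0.82 ± 0.15 (limma adjusted p = 0.0058) and the scaffold subunit ANAPC5 at 0.71 ± 0.21 (adjusted p = 0.0497). Of 20 tested condensin and cohesin genes, STAG1, a cohesin subunit, fell (-0.55 ± 0.16, limma adjusted p = 0.044). Of 32 other kinetochore and centromere genes, CENPB on chromosome 20 (-0.96 ± 0.18, limma adjusted p = 0.0073) and MIS12 (-0.42 ± 0.11, adjusted p = 0.030) fell. Of 46 other mitotic genes, 1 rose, CENPJ, which sets the length of centrioles (0.68 ± 0.20, limma adjusted p = 0.048). The calls of E2F7, UBE2D1 and CENPB held whichever single library was left out. Those of MIS12 and RBL1 were lost in 5 of the 8 fits that leave out a library, those of E2F1, ANAPC5 and STAG1 in 6, and that of CENPJ in 7, with limma adjusted p up to 0.12.

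The difference between the Control libraries extended to these lists in unequal measure. Control replicates 1 and 3 were above Control replicates 2 and 4 in 39.2% of all tested genes. This order held in 44 of 46 other mitotic genes, 31 of 32 other kinetochore and centromere genes, and 15 of 20 condensin and cohesin genes. It held in 14 of 18 genes in each of the MuvB and anaphase-promoting complex lists. The median log2 differences were 1.01, 0.79, 0.57, 0.41 and 0.39. Among 56 genes of DNA replication and S phase the order held in all 56, with a median of 1.04. In IRF8 KO it held in 31 (25.3% of all tested genes), with a median of 0.22. The median log2 fold change of the S phase genes between IRF8 KO and Control was 0.27, with 44 above and 12 below 0, compared with -0.08 and 17 above and 35 below for the 52 genes of G2 and mitosis. Of the S phase genes 0 rose and 2 fell (background 8.65% and 9.56%), which were GINS1 on chromosome 20, a subunit of the replicative helicase (-1.29 ± 0.30, limma adjusted p = 0.019), and UHRF1, which guides maintenance of DNA methylation (-0.81 ± 0.21, adjusted p = 0.029). GINS1 missed the threshold without IRF8 KO replicate 3 or 4 (adjusted p up to 0.052), and UHRF1 in 5 of the 8 fits (up to 0.081). The difference between these lists was not tested. With the replicate block, under which 14.2% of all tested genes were called higher and 14.6% lower, 5 of the S phase genes were called higher and 3 lower, 3 of the anaphase-promoting complex list higher, 3 of the condensin and cohesin list lower, and 2 of the other mitotic genes higher, while the counts of the remaining lists were as without it.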

How the data were processed

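RNA-Seq libraries of MV4-11 cells were analysed, 4 replicates each of Control and IRF8 KO. Per the methods of the study, the authors aligned reads with RNA-Star to GENCODE, counted them per gene with featureCounts and normalized the counts with DESeq2. The submitters' processing notes name builds hg19 and hg38 for the series without a role. The deposited signal per gene, read counts divided by a size factor, covers 19590 genes, of which 2197 were at 0 throughout. All 8 columns were used, so 0 were left out. The columns named as wild type were taken as Control of the same number. In each library 100% of the values gave whole reads, within 0.01 reads. The deposited log2 fold changes, score values and p-values of the authors' comparison hold their findings and were not used, and the ChIP-Seq data were not analysed here.

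The 13110 genes that averaged 10 or more normalized counts were tested. Their log2(normalized count + 1) entered limma 3.58.1 (R 4.3.3) with trend and robust set, and p-values were adjusted over all of them by the Benjamini-Hochberg method. Fold changes of low genes come out too small on this scale. The script was tested on simulated data. Neither labels nor methods say what a shared replicate number marks. Deviations of same-numbered Control and IRF8 KO libraries correlated at 0.37, 0.48, 0.45 and 0.50 over the tested genes. Control replicate 1 correlated with IRF8 KO replicate 3 at 0.47, and Control replicate 3 with IRF8 KO replicate 1 at 0.41. Control replicate 2 correlated with IRF8 KO replicate 4 at 0.40, and Control replicate 4 with IRF8 KO replicate 2 at 0.41. The values thus separate replicates 1 and 3 from 2 and 4. Whether equal numbers mark pairs cannot be told from them. Genes on chromosomes, overlaps of gene models and promoter sequences came from RefSeq (GRCh38.p14), which placed 13001 of the tested genes.

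The 52 genes, the lists and the rule for named genes were chosen with earlier results of these data known. The rule names genes with an adjusted p below 0.05, those on chromosome 20, the 3 largest rises and falls, CDK1, CCNB1, CDC20, PLK1, TOP2A and MKI67, and the 3 with the highest and the 3 with the lowest difference of replicates 1 and 3 from 2 and 4, as well as up to 2 called genes of each other list. The other genes of the list are given by their fold changes. As alternatives, pseudocounts of 0.5 and 5, a minimum mean of 100 or no minimum, 3 other scalings and limma with neither trend nor robust prior were tried, as were a replicate block, a covariate for replicates 1 and 3, and the removal of each library. The recovered reads were also tested with edgeR 4.0.16 and DESeq2 1.42.0. edgeR and DESeq2 with the block were chosen after seeing the data.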

Additional observations from a re-analysis of the deposited data

Results flagged for a closer look

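Groups of 4 libraries, 106 in all (the 52 genes and IRF8 in each genotype), were checked with Dixon's criterion at its 95% critical value. In 5 of the 106, the highest or lowest library stood apart from the other 3. The genes were measured in the same libraries, so the groups are not independent and the count cannot be set against a chance rate. All 5 were in IRF8 KO, 3 of them in replicate 3. CCNA2 was at 8593 normalized counts in replicate 2, while the other 3 libraries lay between 10045 and 10327. In replicate 3, FOXM1 was at 7044 (the others between 6283 and 6315), CENPA at 2704 (between 1836 and 1976) and TOP2A at 26065 (between 31435 and 32287). NUF2 was at 2976 in replicate 4 (between 2810 and 2838).

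In 4 of the 52 genes, replicates 1 and 3 were both above replicates 2 and 4 in Control and both below them in IRF8 KO. Of the 13110 tested genes, 5142 showed the first order in Control and 3159 the second in IRF8 KO. The share that showed both was not counted. The log2 difference was 1.09 in Control and -0.16 in IRF8 KO for TOP2A, which are 1.25 apart, and 0.55 and -0.14 for WEE1, which are 0.70 apart. For NUF2 it was 0.62 and -0.04 (0.66 apart), and for BUB3 0.39 and -0.10 (0.49 apart). The difference between the genotypes was not tested.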

How the results depend on the processing

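Whether equal replicate numbers mark pairs is not known. With the replicate block limma called 5 of the 52 genes, compared with 0 without it, and 1 gene passed the study thresholds, compared with 0. The block changed no other call among the 52 genes. The share of all tested genes called rose as well with the block, from 18.2% to 28.7%. A covariate for replicates 1 and 3 gave 8 and 1 (33.1% of all tested genes called), DESeq2 8 and 2 (25.9%), edgeR 2 and 1 (17.8%), and upper quartile scaling and quantile normalization each 2 and 1 (18.1% and 19.5%), with 3 genes not overlapping under either scaling, compared with 1. With the block added, DESeq2 called 8 genes (34.2% of all tested genes) and edgeR 5 (28.1%). The median log2 fold change was -0.19 with DESeq2 and with edgeR. CDK1 changed sign with DESeq2 (-0.0067) and edgeR (-0.0087), and BIRC5 with DESeq2 (-0.19), edgeR (-0.19) and quantile normalization (-0.013). Leaving out single libraries gave 0 to 10 called genes, 0 to 5 past the study thresholds, 1 to 13 without overlap, and a median from -0.36 to 0.086. For the study thresholds and the overlap, the share of all tested genes was not counted in any of these alternative settings. These counts therefore cannot be set against a background, and fewer libraries make a lack of overlap easier for any gene. The highest counts came without Control replicate 2, which held the lowest Control value in 51 genes, and where 15.5% of all tested genes were called. With each library left out in turn, the difference relative to chromosome 20 ranged from 0.042 to 0.38 for CDC25B. It ranged from -0.20 to 0.36 for MYBL2, -0.42 to 0.16 for AURKA, -0.57 to 0.030 for UBE2C and -0.22 to 0.28 for TPX2. Over these removals, the log2 fold change ranged from -0.18 to 0.31 for CDK1, -0.033 to 0.58 for CCNB1 and -0.51 to 0.048 for CDC20. For PLK1 it ranged from -0.37 to 0.20, for BIRC5 from -0.34 to 0.31 and for KIF20A from -0.38 to 0.26. It kept its sign but moved by over 1.5 times for TOP2A (-0.75 to -0.26), MKI67 (-0.99 to -0.42), CDCA3 (-0.72 to -0.088), CKS2 (0.17 to 0.67), NUSAP1 (0.27 to 0.74), NEK2 (-0.27 to -0.049) and CDC25C (-0.23 to -0.027). The pseudocounts, the filters, limma without the trend and scaling on genes outside chromosomes 20 and Y left 0 genes called. The cause of these changes was not tested. NUSAP1, at under 20 normalized counts in every library, rests on few reads, and the cause of its low level was not tested.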
